A study of Mus musculus with 4 samples.

Results

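The Wnt pathway genes examined here were 50 mouse genes chosen by symbol: 14 Wnt ligands, 2 genes of ligand processing and release, 11 receptors and co-receptors, 3 Dishevelled genes, 5 genes of the destruction complex including its substrate beta-catenin, 4 TCF/LEF transcription factors, 6 secreted inhibitors and 5 feedback targets. They are 50 of 23785 symbols with a probe on the arrays. The cells were S-180, a mouse sarcoma line that can be grown as a transplanted tumour, and their RNA was read on 4 single-colour Agilent arrays. The 2 control samples were untreated, and the 2 others received the antidepressant fluoxetine, which blocks serotonin reuptake, at 20 µM for 12 h. All were kept in RPMI with 10% fetal bovine serum, per the labels. A vehicle for the controls and whether samples came from separate cultures are not given in the sources used here, so the p-values measure only the spread between these samples. The data cover 1 cell line, 1 dose and 1 time.

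Wnt proteins are secreted lipid-modified signals. Porcn attaches the lipid and Wls carries the ligand to the cell surface, where it binds a Frizzled receptor and an Lrp5 or Lrp6 co-receptor and engages Dishevelled. Without a signal, Axin1, Apc, Gsk3b and Csnk1a1 mark beta-catenin (Ctnnb1) for destruction; with a signal, beta-catenin accumulates and acts with TCF/LEF factors on target genes, several of which (Axin2, Rnf43, Znrf3, Nkd1, Notum) dampen the pathway in turn. Transcript levels do not measure beta-catenin protein or pathway activity.

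The fluoxetine arrays showed more transcript of genes from several steps of the pathway: the ligand Wnt7a, the ligand carrier Wls, the receptor Fzd5, the relay genes Dvl3 and Dvl2, and the receptor-removing ubiquitin ligase Rnf43. Wnt10b and Fzd2 rose by less. The ligand Wnt5b, the receptor Fzd4 and the kinase gene Csnk1a1 fell on the probes used. On the probes used, no change reached 2-fold: the rises ran from 1.30-fold to 1.87-fold and the falls from 1.29-fold to 1.5-fold. A further Wnt7a probe rose by 1.03 on the log2 scale, just over 2-fold. Of all genes tested, 4.58% were called and changed at least 2-fold. The 6 secreted inhibitors and the target gene Axin2 were too dim to test.

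The arrays were alike in quality. Between 51.6% and 53.4% of non-control spots were well above background, and 0 were saturated. Over 25833 probes well above background on every array, Pearson's r (computed across probes, not samples) was 0.993 for the pair of controls, 0.995 for the pair with fluoxetine and 0.976 to 0.983 across groups. All 4 arrays lay on 1 slide in 1 scan, with the control arrays in neighbouring places and the fluoxetine arrays in the next ones, per the file headers, so place on the slide and treatment cannot be told apart. Of 10 mesenchymal markers, 8 were detected in both controls and 7 in both fluoxetine samples, among them Vim and S100a4. Of 7 epithelial markers, 5 were detected in both controls and 6 in both fluoxetine samples. The keratin genes Krt8, Krt18 and Krt19 and Epcam were above background on every array. The epithelial cadherin gene Cdh1 and the mesenchymal markers Pdgfrb and Thy1 were not well above background on any array. Of the tested markers of both lists, 3 were called, all lower with fluoxetine: the keratin gene Krt14 by 4.44-fold (adjusted p = 0.00761), Sparc by 1.54-fold (adjusted p = 0.0162) and the collagen gene Col1a2 by at least 2.38-fold (adjusted p = 0.0119), a bound from the lowest detected signal since Col1a2 was not well above background on either fluoxetine array. Of 10 leukocyte markers, 4 were detected in both controls and 3 in both fluoxetine samples, and the summed linear level of the 4 tested (in units of the array's 75th percentile) ran from 5.98 to 6.14 in control and from 2.49 to 2.62 with fluoxetine; the pan-leukocyte marker Ptprc was not well above background on any array. That sum is mostly Itgam, a myeloid integrin gene, which fell 3.89-fold (adjusted p = 0.00636), whereas the T cell gene Cd3e rose by 0.52 ± 0.10 (adjusted p = 0.0313) and Csf1r (−0.16) and Ms4a1 (−1.88, not well above background with fluoxetine) did not pass. The sum of the 2 tested erythroid markers, the globin genes Hba-a1 and Hbb-bt, ran from 0.841 to 0.846 in control and from 3.55 to 3.79 with fluoxetine; Hbb-bt was not well above background on either control array. The part of these markers in the Wnt results was not tested. In bulk RNA, fewer cells with a transcript and less transcript per cell cannot be told apart.

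Of the 50 members, 28 had a probe marked well above background in both samples of 1 group or of each and were tested, and all 28 were above background on all 4 arrays. The other 22 stayed dim: 16 were not well above background on any array by any probe, and 6 (Wnt5a, Wnt11, Tcf7l1, Tcf7l2, Wif1 and Znrf3) were on 1 array. A level below is log2 of the signal relative to the 75th percentile of the probes of the same array; a change is the fluoxetine mean minus the control mean in log2, ± its standard error from limma (n = 2 arrays per group). A gene is said to have risen or fallen when its adjusted p over all 13539 genes tested was under 0.05. By that rule 11 of the 28 tested members were called (39.3%), against 26.9% of all genes tested. Of the 28, 8 were called higher, against 16.8% of all genes. The 3 of 28 called lower lay near the 10.1% of all genes called lower. The median change of the 28 was 0.11, against 0.06 over all genes. The groups did not overlap for 23 of the 28 (82.1%), against 72.5% of all genes, and 2 arrays against 2 allow no exact permutation p below 0.333 for a gene taken alone. The count of calls moved with each array left out: without fluoxetine 1 or without fluoxetine 2 limma called 0 of all genes (4070 and 4537 at an unadjusted p under 0.05), with 6 and 8 members higher and 3 and 3 lower at an unadjusted p under 0.05, while 4 members were higher without control 1 and 6 without control 2.

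**Figure D1:**
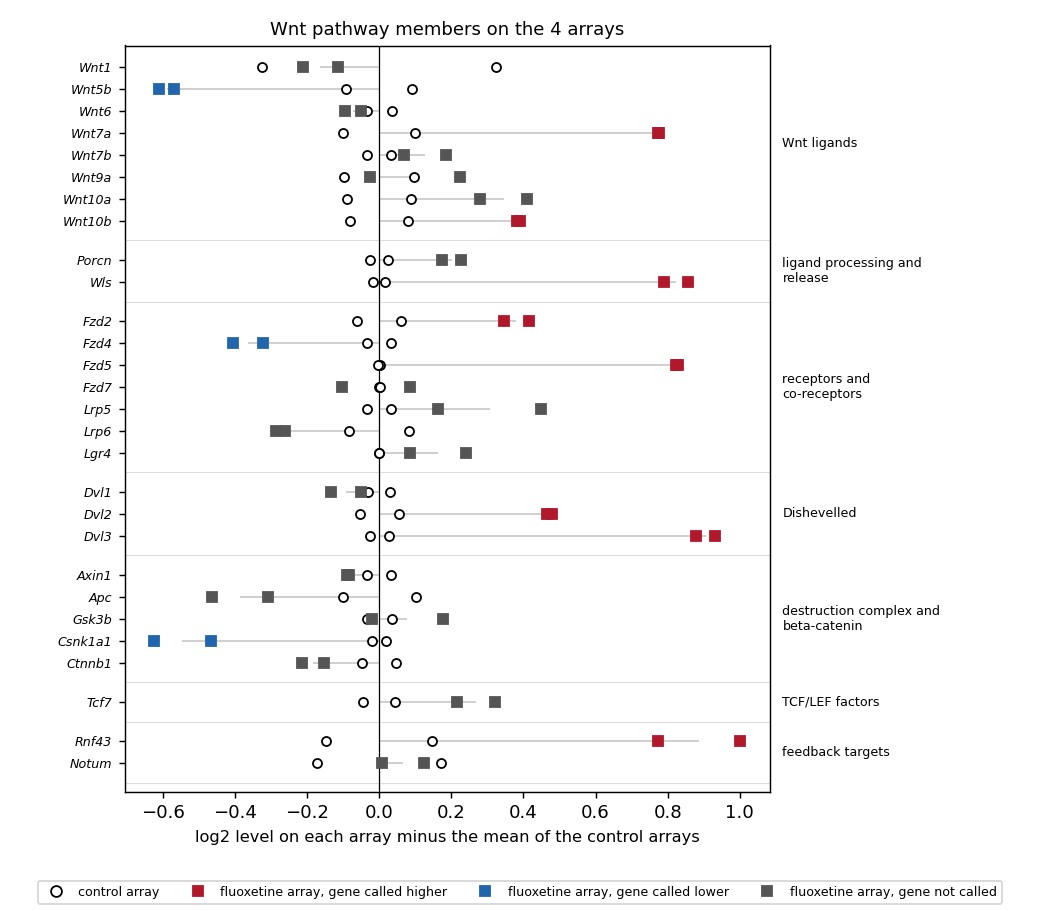
Level on each array minus the control mean (log2, x axis) for the 28 tested members, grouped by role; open circles are control arrays, squares fluoxetine arrays, coloured red where the gene was called higher, blue where called lower and grey where not called. The widest separations are Dvl3, Rnf43, Fzd5, Wls and Wnt7a to the right and Wnt5b and Csnk1a1 to the left.

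Among the 14 ligand genes, 8 were tested, of which 2 rose, 1 fell and 5 did not pass. Wnt7a, a ligand best known from limb and nervous system patterning, read −1.94 and −1.74 on the control arrays and −1.07 on each fluoxetine array. Its fluoxetine values lay above both control values, a rise of 0.77 ± 0.10 or 1.71-fold (adjusted p = 0.0178). A further Wnt7a probe rose as well, from −3.13 and −3.34 to −2.23 and −2.18 (1.03 ± 0.11, adjusted p = 0.0135 in the fit on all probes).

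Wnt10b, a ligand known for restraining fat cell differentiation, read −1.30 and −1.14 in control and −0.83 and −0.84 with fluoxetine. The groups did not overlap, and the rise of 0.39 ± 0.09 (1.31-fold, adjusted p = 0.0477) lay close to the threshold; it was not called with an intensity trend in limma. Its close relative Wnt10a read 4.51 and 4.69 against 5.01 and 4.88, a change of 0.35 ± 0.11 that did not pass (adjusted p = 0.0805).

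Wnt5b, mainly a ligand of beta-catenin-independent signalling, read −1.41 and −1.23 in control and −1.89 and −1.93 with fluoxetine. Both fluoxetine values were below both control values, a fall of 0.59 ± 0.10 on the log2 scale (1.5-fold, adjusted p = 0.0257). A dimmer Wnt5b probe, named for another transcript, gave 0.04 ± 0.20 and overlapping groups, and the mean of the 2 probes was not called (−0.28). The fall in Wnt5b was thus seen on 1 of its 2 probes.

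The other tested ligands showed changes from −0.16 (Wnt1) to 0.13 (Wnt7b) and did not pass, and Wnt1 and Wnt9a overlapped between groups. The remaining 6 ligand genes, Wnt2, Wnt2b, Wnt3, Wnt4, Wnt5a and Wnt11, were too dim to test, as were all 9 other ligand and R-spondin genes looked at, Wnt3a, Wnt16 and Rspo1 to Rspo4 among them.

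RefSeq promoter windows (build GRCm38.p6) were listed for 33 of the 50 members, and 9 of the 11 called ones. The letters CTTTGAT, a core of the TCF/LEF site, were searched on both strands of the 250 bases before each listed start. They were found for 2 of the 33 members, Wnt5b and the untested Wnt11, and for 3.72% of 27025 genes with a window. Wnt5b has 3 listed starts, and the window of 1 of them holds the letters, 71 bases before that start and on the gene's strand; it is shown because Wnt5b was the only called member with a match. The windows of Wls and Dvl3, which rose and held no match, are shown beside it. All run 5′ to 3′ on the gene's strand, with the match in capitals; they lie at chr6:119449387-119449636 (minus strand), chr3:159839400-159839649 (plus) and chr16:20516736-20516985 (plus). A match is a description of letters, and binding was not measured.
Wnt5b: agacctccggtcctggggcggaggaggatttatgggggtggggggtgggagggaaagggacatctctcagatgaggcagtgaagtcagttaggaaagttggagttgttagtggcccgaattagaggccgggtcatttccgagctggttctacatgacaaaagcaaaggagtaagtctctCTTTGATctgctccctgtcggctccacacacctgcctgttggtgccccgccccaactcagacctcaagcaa
Wls: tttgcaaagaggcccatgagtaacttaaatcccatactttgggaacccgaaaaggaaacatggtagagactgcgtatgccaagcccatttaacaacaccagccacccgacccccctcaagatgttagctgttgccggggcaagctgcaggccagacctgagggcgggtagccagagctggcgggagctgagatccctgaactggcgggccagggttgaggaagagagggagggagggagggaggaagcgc
Dvl3: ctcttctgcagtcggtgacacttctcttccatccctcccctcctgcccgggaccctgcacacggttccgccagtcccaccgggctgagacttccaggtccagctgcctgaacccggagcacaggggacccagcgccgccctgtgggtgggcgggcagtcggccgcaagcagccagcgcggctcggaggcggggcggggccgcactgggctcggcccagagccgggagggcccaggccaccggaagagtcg

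Both genes that prepare ligands for release were tested. Wls, the carrier that takes Wnt proteins to the cell surface, read 0.14 and 0.11 in control and 0.91 and 0.98 with fluoxetine. The fluoxetine arrays stood well apart from the control arrays, with a rise of 0.82 ± 0.08 or 1.77-fold (adjusted p = 0.0125). Its other probe also rose, by less (0.42 ± 0.09, adjusted p = 0.0416 in the fit on all probes). Porcn, the acyltransferase, read 0.95 and 1.00 against 1.15 and 1.21, a change of 0.20 ± 0.08 that did not pass (adjusted p = 0.122) although its groups did not overlap.

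Of the 11 receptor and co-receptor genes, 7 were tested: 2 rose, 1 fell and 4 did not pass. Fzd5, a Frizzled receptor known from gut and eye, read −2.83 on each control array and −2.01 and −2.0 with fluoxetine. Replicates nearly coincided, and the rise was 0.83 ± 0.07 or 1.77-fold (adjusted p = 0.0119). A dimmer Fzd5 probe, well above background on 1 array of each group and so not tested, changed by −0.15 with overlapping groups. Fzd2, a receptor used by several Wnt ligands, rose from 1.45 and 1.58 to 1.93 and 1.86 (0.38 ± 0.09, 1.30-fold, adjusted p = 0.0447). Fzd4, a receptor for Wnt ligands and for norrin in blood vessels, fell from 0.27 and 0.34 to −0.02 and −0.10. That fall was 0.36 ± 0.08 on the log2 scale (1.29-fold, adjusted p = 0.0424), with no overlap, and it was not called when each array was centred on its median.

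The Frizzled genes thus split within the family: 2 rose, 1 fell, Fzd7 was at −0.01 ± 0.10 with overlapping groups, and Fzd1, Fzd3, Fzd6 and Fzd8 were not above background on any array. The co-receptor Lrp5 read 0.19 and 0.26 against 0.68 and 0.39, a change of 0.31 ± 0.13 (adjusted p = 0.142). The co-receptor Lrp6 read 2.98 and 3.15 against 2.78 and 2.81 on its brightest probe (−0.27 ± 0.09, adjusted p = 0.0999). A second Lrp6 probe moved the other way, from −1.34 and −1.17 to −0.86 and −0.70 (0.48 ± 0.11, adjusted p = 0.0443 in the fit on all probes), so the arrays gave no settled direction for Lrp6. Lgr4, a receptor for R-spondins, was at 0.16 ± 0.09 and did not pass.

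All 3 Dishevelled genes, whose products relay the signal from the receptors, were tested, and 2 rose. Dvl3 read 2.04 and 2.09 in control and 2.95 and 3.0 with fluoxetine. Its rise of 0.91 ± 0.08, or 1.87-fold, was the largest change among the 28 tested members on the probes used (adjusted p = 0.0118). A further Dvl3 probe, named for another transcript, was not well above background on any array and so was not tested. The rise of Dvl3 thus rests on 1 probe. Dvl2 rose from 2.83 and 2.94 to 3.37 and 3.35 (0.47 ± 0.08, 1.39-fold, adjusted p = 0.0273). Dvl1 was at −0.09 ± 0.08 on its brightest probe and did not pass, while a dimmer probe named for another Dvl1 transcript rose from 0.83 and 0.91 to 1.39 and 1.32 (0.48 ± 0.08, adjusted p = 0.027 in the fit on all probes).

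The 5 genes of the destruction complex and beta-catenin were all tested: 1 fell and 4 did not pass, and the median change was −0.18. Csnk1a1, the kinase that primes beta-catenin for Gsk3b, read 4.92 and 4.95 in control and 4.47 and 4.31 with fluoxetine. On that probe it fell by 0.55 ± 0.09 on the log2 scale (1.46-fold, adjusted p = 0.0262). Its 3 further probes gave −0.18, 0.21 and 0.38 and did not pass; 2 of them pointed the other way, and the mean over the 4 probes was −0.04, so the fall of Csnk1a1 belongs to 1 probe.

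Apc, the scaffold lost in many colon tumours, read −1.19 and −1.40 against −1.76 and −1.60, a change of −0.39 ± 0.11 that did not pass (adjusted p = 0.0764) with no overlap of the groups. Ctnnb1, beta-catenin itself, read 3.61 and 3.70 against 3.50 and 3.44 (−0.18 ± 0.08, adjusted p = 0.168), and its other probe gave 0.18 ± 0.08. The scaffold gene Axin1 was at −0.09 ± 0.08 on its brightest probe, with a dimmer probe higher at 0.79 ± 0.11 (adjusted p = 0.0178 in the fit on all probes). The kinase gene Gsk3b was at 0.08 ± 0.10 with overlapping groups on its brightest probe, with 2 dimmer probes higher at 0.47 and 0.83 (adjusted p = 0.0285 and 0.0146 in the fit on all probes). As reported, 4 of the 5 changes were below 0, with a group median of −0.18 against 0.06 over all genes. Centring each array on its median, which adds the same amount to every gene, put 2 of the 5 below 0, with a group median of 0.03 against 0.27 over all genes. With the mean of the kept probes of each gene, 2 of the 5 were below 0 and the group median was 0.00083.

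Of the 4 TCF/LEF genes only Tcf7 was tested; Lef1, Tcf7l1 and Tcf7l2 were too dim. Tcf7 read 0.23 and 0.32 against 0.60 and 0.49 on its brightest probe, a change of 0.27 ± 0.09 that did not pass (adjusted p = 0.0887). Its other 2 probes gave −0.05 and 0.77 and did not pass either.

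Feedback targets are genes that beta-catenin is known to induce in other tissues. Rnf43, a ubiquitin ligase that removes Frizzled receptors from the cell surface, read −2.55 and −2.84 in control and −1.70 and −1.93 with fluoxetine. Both fluoxetine values lay above both control values, and the rise was 0.89 ± 0.15 or 1.85-fold (adjusted p = 0.0261). Notum, a secreted enzyme that strips the lipid from Wnt proteins, read 0.99 and 1.34 against 1.17 and 1.29, with overlapping groups (0.07 ± 0.15, adjusted p = 0.751). A dimmer Notum probe read −1.80 and −1.32 in control and −1.33 and 0.22 with fluoxetine. Its groups overlapped too, and its change of 1.01 ± 0.57 did not pass (adjusted p = 0.24 in the fit on all probes). Axin2 and Nkd1 were not above background on any array, and Znrf3, the paralogue of Rnf43, was so on 1 array. Of the 5 feedback targets, 1 was called, 1 was not and 3 were too dim to test.

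Of the 6 secreted inhibitors, Dkk1, Dkk2, Dkk3, Sfrp1 and Sfrp2 were not well above background on any array and Wif1 was on 1, so no fold could be given. The groups could not be compared for these antagonists, of which the Dkk proteins 1 and 2 block the Lrp co-receptors and the Sfrp proteins and Wif1 bind the ligands.

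**Figure D2:**
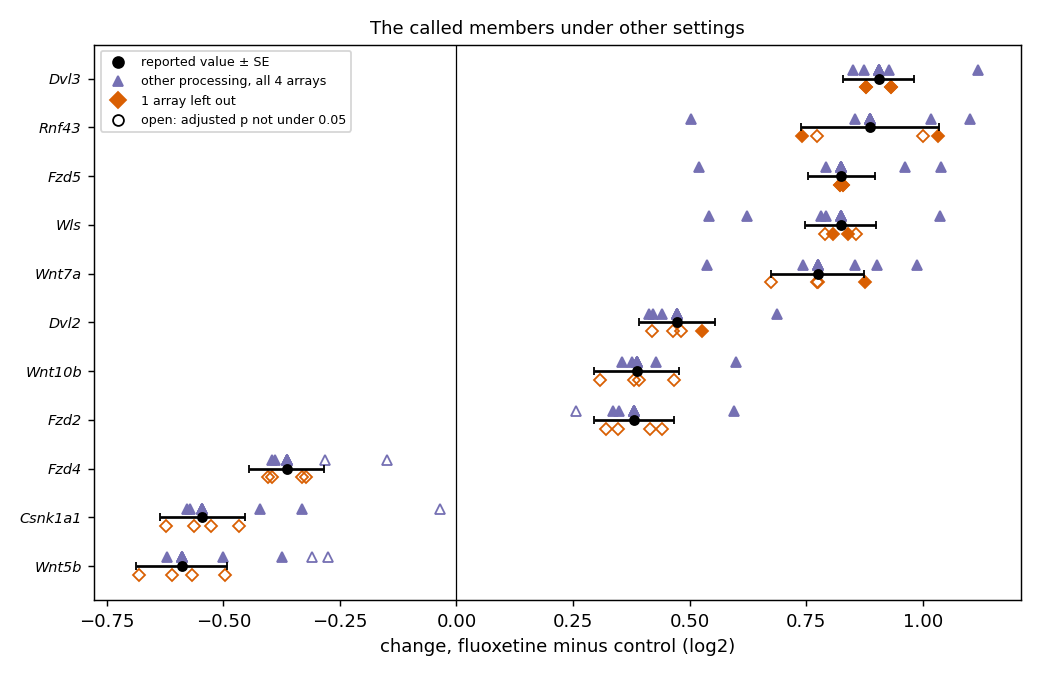
Change in log2 (x axis) of the 11 called members as reported (black, ± SE), under other processing of all 4 arrays (triangles) and with 1 array left out (diamonds); open symbols had an adjusted p that was not under 0.05. Where symbols coincide, the filled one lies on top. Every point stays on its side of 0, Csnk1a1 coming closest at −0.04.

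Under 15 other settings (the plot of the called members) the 11 changes kept their direction. The intensity trend, the blocks and the fit on each probe reuse the same difference of the same probe. Leaving out 1 array cannot turn the sign of a gene whose groups do not overlap, which held for all 11. In those settings the direction was fixed beforehand. Dvl3 ran from 0.85 to 1.12, Wls from 0.54 to 1.04, Fzd5 from 0.52 to 1.04 and Rnf43 from 0.50 to 1.10, and these 4 were also called when either control array was left out. Fzd4 was the least stable call, made in 6 of the 15 settings, followed by Wnt5b, Wnt10b and Fzd2 in 7 and Csnk1a1 in 8. With the replicate number as a block, limma called 5 members higher (Wnt7a, Wls, Fzd5, Dvl3 and Rnf43) and 0 lower, with 8 and 3 at an unadjusted p under 0.05.

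The members with several probes showed a shared feature that the gene-level values leave out. For 12 members more than 1 probe was kept, and for 11 of the 12 (91.7%) the further probes on average had a higher change than the brightest one; the exception was Wls. Over all 4968 genes with several kept probes this was so for 51%. The median change of the 12 was −0.01 on the brightest probe and 0.48 on the further probes, against 0.07 and 0.07 over all such genes. Of the 16 further probes, 8 were higher at an adjusted p under 0.05 (50%), against 19.4% of all further probes. They belonged to Axin1, Dvl1, Gsk3b (2 probes), Lrp6, Wls, Wnt7a and Wnt7b. The ligand Wnt7b shows the pattern: its brightest probe read 2.43 and 2.50 against 2.65 and 2.54 (0.13 ± 0.09), and its dimmer probe, named for another transcript, read −0.65 and −0.72 against −0.05 and −0.12 (0.60 ± 0.08, adjusted p = 0.0186 in the fit on all probes). For 7 of the 12 members (58.3%, against 42.3% of all such genes) at least 1 further probe had the opposite sign. Over all genes tested, split into 4 equal parts by level, the median change ran from −0.02 in the dimmest part to 0.09 in the next to brightest. In the wider list read below, further probes at an adjusted p under 0.05 went both ways. They were higher for Camk2d, Chd8 and Myc and lower for Daam1, Nlk and Prickle1, among others. The difference of the members from other genes was not tested, and neither was the part of probe level in it.

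**Figure D3:**
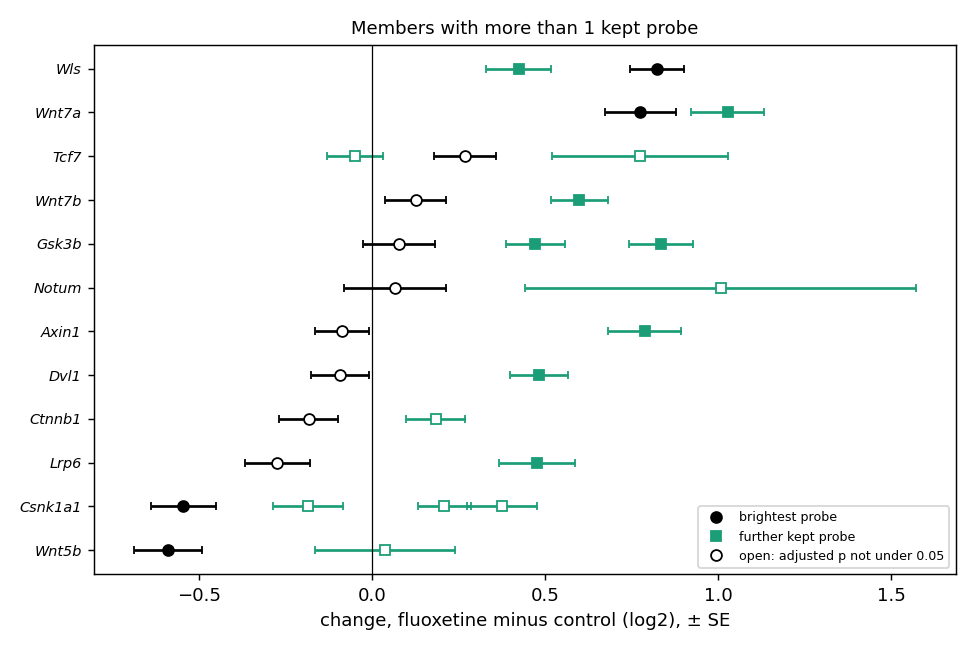
Change ± SE in log2 (x axis) of each kept probe for the 12 members with more than 1; black circles are the brightest probe, green squares further probes, open where the adjusted p over all kept probes was not under 0.05. In 11 of the 12 the green points lie on average to the right of the black one.

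A wider list of 116 other genes of the pathway was read in the same fit, of which 71 were tested. Of these, 12 were called higher, 6 lower and 53 neither; the 25.4% called compares with 26.9% of all genes, and the median change was 0.01. By size the changes in this list went beyond those of the 50 members. Lgr5, an R-spondin receptor and stem cell marker that is also a Wnt target, read −1.33 and −1.38 in control and −3.53 and −3.30 with fluoxetine, a fall of 2.06 ± 0.11 on the log2 scale (4.17-fold, adjusted p = 0.00798). Celsr1, an atypical cadherin of planar cell polarity, rose from −2.97 and −2.77 to −1.05 and −0.90 (1.89 ± 0.11, 3.71-fold, adjusted p = 0.00947). Both genes had well separated groups and 1 kept probe each.

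Of 10 tested genes listed for planar polarity and other beta-catenin-independent signalling, 3 rose (Celsr1, Camk2d and Vangl1), 1 fell (Prickle1) and 6 did not pass, beside the 26.9% called among all genes. Among those that did not pass, Daam1 and Nlk each had a further kept probe that fell. These changes were −1.31 and −0.55 (adjusted p = 0.0153 and 0.0267 in the fit on all probes). The further kept probe of Vangl1 changed by 0.12 with overlapping groups and did not pass (adjusted p = 0.467 in the same fit). Ptk7, listed with the receptors and known as a co-receptor of planar polarity, rose from 0.63 and 0.89 to 1.99 and 1.86 (1.16 ± 0.13, adjusted p = 0.0144). Camk2d, a calcium-dependent kinase gene, rose by 0.76 ± 0.09 (adjusted p = 0.017), while the polarity gene Prickle1 fell by 0.44 ± 0.08 on the log2 scale (adjusted p = 0.0307). The 2 further kept probes of Prickle1 fell too, but its call was lost with median centring (−0.22, adjusted p = 0.0659). Ror2 and Vangl2 were too dim to test.

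Among inhibitors of the wider list, Nkd2, which binds Dishevelled, fell from −1.39 and −0.92 to −2.62 and −2.17 (1.24 ± 0.24 on the log2 scale, adjusted p = 0.0327), and the secreted Dickkopf relative Dkkl1 rose from −0.57 and −0.31 to 0.31 and 0.27 (0.73 ± 0.11, adjusted p = 0.0236). Tpbg, a membrane inhibitor, fell. Of 21 regulators of the destruction complex tested, 1 rose, the kinase gene Csnk1e, and 20 did not pass, beside 26.9% called among all genes. For some of the 20, 1 further kept probe had an adjusted p under 0.05 in the fit on all probes. It was higher for Ppp2r1a (0.82), Rnf146 (0.70) and Usp34 (0.38) and lower for Csnk1d (−0.55). Nuclear cofactors went both ways on the probes used: Bcl9l, Ctbp2 and Crebbp rose, and Chd8 and the acetyltransferase gene Ep300 (a fall of 0.82 ± 0.19 on the log2 scale, adjusted p = 0.0473) fell. Bcl9l had 2 further kept probes of opposite sign that did not pass (−0.27 and −0.40). Csnk1e had 1 such probe (−0.09) beside 1 that rose with it. The other Crebbp probe, of similar level in control, changed by −0.46 and did not pass (adjusted p = 0.0532 in the fit on all probes). The rise of Crebbp thus belongs to 1 of its 2 probes. The arrays gave no settled direction for Chd8: its brightest probe fell by 0.34 on the log2 scale, and a dimmer one rose by 1.43 (adjusted p = 0.00964 in the fit on all probes). The fall of Ep300 was not called under quantile normalization or median centring.

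Of 12 tested genes listed as Wnt targets in other tissues, 3 rose and 9 did not pass. Among all genes tested, 26.9% were called and 16.8% were called higher. Lgr5, also a Wnt target, was listed with the receptors and is outside this count, and it fell by 2.06 on the log2 scale. Sp5, a transcription factor gene induced by beta-catenin in many cell types, rose from −0.08 and −0.04 to 0.35 and 0.41 (0.44 ± 0.08, adjusted p = 0.0277), a call lost with normexp background correction (0.29, adjusted p = 0.0668). Ppard and Ephb3 were the others. The growth regulator Myc (−0.26 ± 0.08), the cyclin gene Ccnd1 (0.23 ± 0.13) and the adhesion gene Cd44 (−0.03 ± 0.08) did not pass, but a further Myc probe rose by 0.39 (adjusted p = 0.0347 in the fit on all probes).

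**Figure D4:**
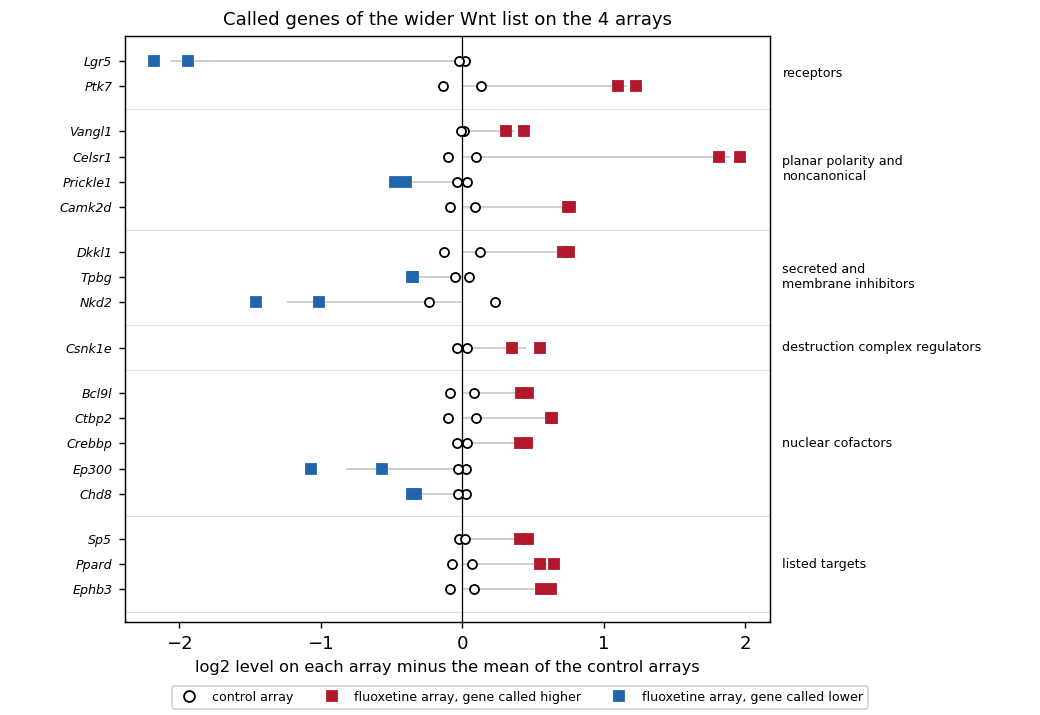
Level on each array minus the control mean (log2, x axis) for the 18 called genes of the wider list, grouped by role; open circles are control arrays, red squares fluoxetine arrays of genes called higher and blue squares those of genes called lower. Celsr1 and Lgr5 lie farthest from their controls, in opposite directions.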

How the data were processed

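Gene expression was measured on 4 arrays, 1 per sample, in 2 groups of 2. The deposited files hold linear intensity per spot, already background-corrected by Feature Extraction 12.1.0.3 and with no scaling across arrays, per the file headers, and yes-or-no marks for detection and outliers. In R 4.3.3, control and outlier spots were left out, repeated spots averaged, and each array's 75th percentile over distinct probes subtracted from log2 of the deposited intensity; it was 449 and 415 in control and 356 and 419 with fluoxetine. Symbols came from RefSeq (GRCm38.p6) by unversioned accession, for 34675 of 56605 probes; 21930 matched none and 0 several. A probe was kept if marked well above background in both samples of either group, and the brightest kept probe stood for its gene, leaving 13539 genes. Limma 3.58.1 (lmFit, eBayes, group as the only term) was followed by Benjamini-Hochberg adjustment, and a fit on all 19889 kept probes gave the probe values. The script was tested on simulated data. The alternatives were other scalings, background correction, filters, probe rules, blocks and leaving out each array. All 50 members could be named. From the wider list all called genes could be named, with values for the 4 of each direction with the largest change, and Ror2, Vangl2, Sp5, Myc, Ccnd1 and Cd44 whatever their call. Tpbg, Ppard and other called genes are named without values for the probe used. Values of further kept probes are also given for some genes of this list, called or not. The rule also named the member of highest level in each role, which was not used because levels of different probes are not comparable. The members and lists were chosen with earlier results of these data known. The number of arrays limits the precision.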

Additional observations from a re-analysis of the deposited data

How the results depend on the processing

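The 11 called members kept their direction in all 15 other settings, though the trend, the blocks, the fit on each probe and leaving out 1 array could not change it. The counts of calls varied. Centring arrays on their median moved the median change of all genes from 0.06 to 0.27 and that of the members to 0.33. It called 6299 genes, 14 members higher and 2 lower, and 29 genes of the wider list higher and 2 lower. The uncalled Axin1, Ctnnb1, Dvl1, Fzd7, Wnt1, Wnt6 and Cd44 changed sign with this shift, which is the same for every gene. With dim probes kept, limma made 0 calls over all genes, 0 members higher and 0 lower included and 0 and 0 in the wider list; at an unadjusted p under 0.05 it gave 5272 genes, 8 and 7 members and 18 and 9 of the wider list, and the median over all 50 members was −0.087. The mean of kept probes gave 1 member lower and a members' median of 0.32. Normexp on the median signals, chosen after seeing that mean signals were not among the columns at hand, called 1 member lower. An intensity trend called 10 of the wider list lower. With the replicate number as a block 1859 genes were called, 5 members higher and 0 lower (3 at an unadjusted p under 0.05 by limma), and 5 and 2 of the wider list. Deviations of equally numbered samples correlated at −0.12; the crossed pairing as a block, added after seeing the data, called 2679 genes, 5 members higher and 2 lower, and 8 and 2 of the wider list. Leaving out 1 array at a time gave 0 to 2666 genes called (4070 to 5612 at an unadjusted p under 0.05 by limma), 0 to 6 members higher, 0 lower (3 to 5 at an unadjusted p under 0.05), 0 to 7 of the wider list higher and 0 to 2 lower, and a members' median from 0.076 to 0.18; the counts of 0 over all genes came without either fluoxetine array. The 75th percentile over spots, also added later, left 8 members higher and 3 lower. The causes were not tested, and dimness left 22 members untested. No slide or scan block was possible, since all arrays share both.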
